A study of Mus musculus with 10 samples.

Results

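The genes of the apoptosome and of the inhibitor of apoptosis proteins (IAPs) were examined in mouse liver after activation of the death receptor CD95. The 10 genes were chosen by name from the known biology of the mitochondrial death pathway, out of 38922 genes in the tables, and all 10 had enough counts to be tested. Wild-type male C57BL/6N mice, an inbred strain, were 6 weeks old and received an intraperitoneal injection of a CD95-activating antibody (CD95-Ab, 0.5 µg/g body weight) or an equal volume of saline, and livers were harvested 6 h later. There were 5 mice per group, each giving 1 RNA-seq library from whole liver, with between 25965699 and 62097636 assigned counts. All mice carried the same genotype, and the comparison asked how the liver transcriptome differed after CD95-Ab.

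In the mitochondrial pathway of cell death, cytochrome c leaves the space between the mitochondrial membranes and binds Apaf-1, which then assembles into a wheel, the apoptosome, that activates the initiator caspase-9. IAPs carry baculoviral IAP repeat (BIR) domains. XIAP binds and blocks caspases directly, whereas cIAP1 and cIAP2 act mainly as ubiquitin ligases in the signaling complexes of death receptors, and Smac and HtrA2, released from mitochondria, displace IAPs from caspases. Hepatocytes depend on this mitochondrial loop to die after CD95 activation.

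Levels are given as CPM, counts scaled to a common library total that was adjusted with TMM factors, which correct for a few abundant genes taking up reads. Of the 10 genes, 4 passed the test of edgeR at a false discovery rate (FDR) of 0.05 or less, 3 higher and 1 lower after CD95-Ab. These were Apaf1, Birc2 and Birc3, which rose, and Casp9, which fell. Among all 13719 genes tested, 47.3% passed the same threshold, 25.4% higher and 22.0% lower, so the share of these genes that changed was not above that of the transcriptome. In the same 4 genes the groups did not overlap, that is, the ranges of the 5 mice of each group were separate, compared with 33.3% of all genes tested. The median log2 fold change was 0.10 over the 10 genes and 0.01 over all genes tested. The tissue is whole liver, so fewer cells of a type and less RNA per cell cannot be told apart.

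**Figure D1:**
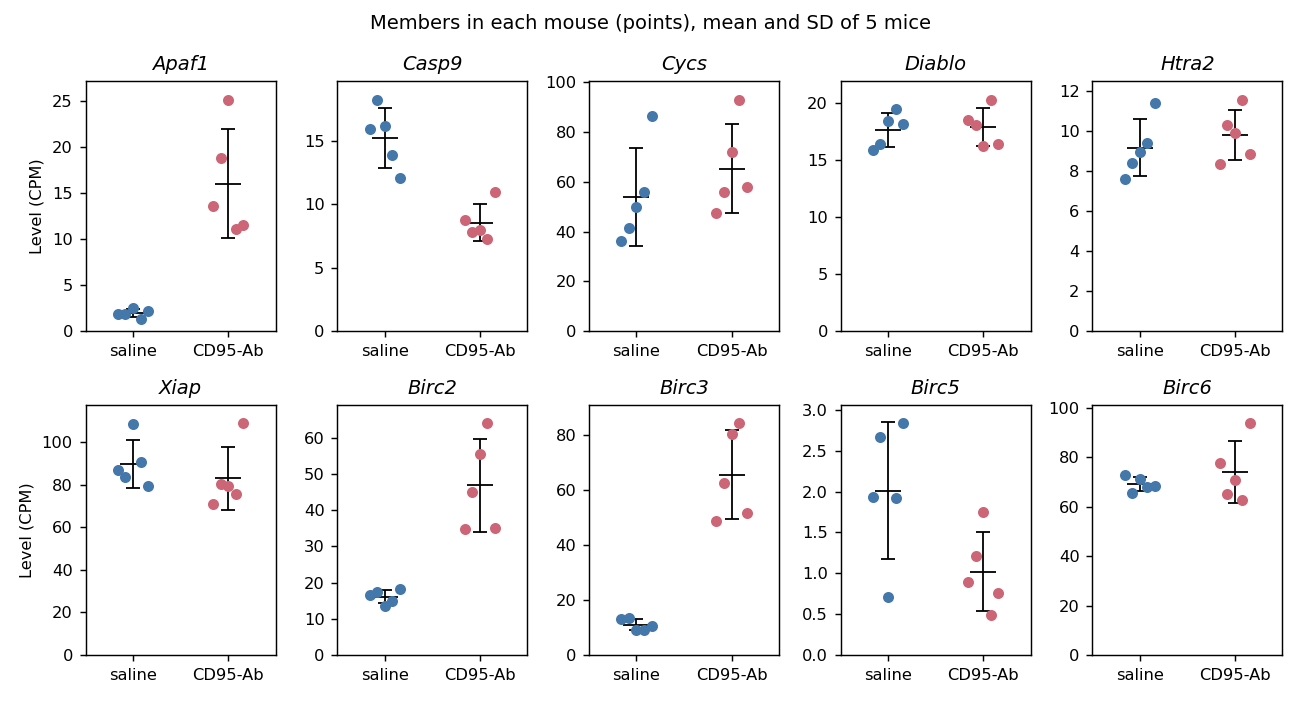
Level in CPM (y axis, from 0) of each of the 10 genes in the 5 saline-injected mice (blue) and the 5 mice injected with CD95-Ab (red), one point per mouse, with the mean and SD in black. The groups are separate for Apaf1, Birc2, Birc3 and Casp9 and overlap for the other 6 genes.

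Apaf1, the gene for the apoptosome scaffold, was the least expressed of the 10 genes per length in the control liver and showed the largest fold change. Saline-injected mice had 1.91, 1.90, 2.51, 1.31 and 2.15 CPM (replicates 1 to 5), and mice injected with CD95-Ab had 13.6, 18.8, 25.2, 11.1 and 11.6 CPM. The lowest mouse after CD95-Ab lay well above the highest control, and replicate 3 was the highest of its group. The means were 1.95 ± 0.44 and 16.1 ± 5.94 CPM (SD, n = 5 each), an 8.16-fold increase with a 95% interval of 5.50 to 12.1 (log2 fold change 3.03, standard error 0.26, FDR = 4.08e-06). The exact permutation test gave p = 0.00794, the smallest that 5 mice against 5 can reach. The gene lies on chromosome 10 (GRCm38, 90989311 to 91082770, minus strand). Its promoter, here the 250 bases before and 50 bases after the start of transcription from RefSeq on GRCm38.p6, is shown because this gene changed most. It had a GC content of 74.7%, and the capitals mark the letters GCGCATGC, the core motif of nuclear respiratory factor 1 (NRF1), which begin 113 bases before the start.
Apaf1, chr10:91082694-91082993, minus strand: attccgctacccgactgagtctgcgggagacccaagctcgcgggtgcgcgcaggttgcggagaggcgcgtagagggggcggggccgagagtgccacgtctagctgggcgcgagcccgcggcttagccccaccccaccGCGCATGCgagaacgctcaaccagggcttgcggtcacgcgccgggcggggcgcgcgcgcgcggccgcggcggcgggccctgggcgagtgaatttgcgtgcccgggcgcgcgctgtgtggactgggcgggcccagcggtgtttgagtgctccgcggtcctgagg

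Casp9 encodes caspase-9, the protease that the apoptosome activates, and was the one gene of the 10 that passed the edgeR test as lower after CD95-Ab. Controls had 15.9, 18.3, 16.2, 13.9 and 12.1 CPM, and mice injected with CD95-Ab had 8.73, 7.83, 7.96, 7.31 and 10.98 CPM. The groups did not overlap, although the lowest control, replicate 5, and the highest treated mouse, also numbered 5, came close to each other. The means were 15.3 ± 2.37 and 8.56 ± 1.44 CPM (SD, n = 5 each), 1.78-fold lower after CD95-Ab (log2 fold change -0.83, 95% interval -1.16 to -0.50, standard error 0.15, FDR = 8.08e-04, exact permutation p = 0.00794). The gene is on chromosome 4 (141793612 to 141815976, plus strand) and overlaps Cela2a and Ctrc on the opposite strand, which had at most 39 counts and 1 count in any mouse, against 181 to 677 counts for Casp9.

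Within each mouse the ratio of Apaf1 to Casp9 does not depend on how libraries are scaled to each other. It was 0.0942 to 0.179 in controls and 1.06 to 3.17 after CD95-Ab, so that Casp9 had a higher CPM than Apaf1 in every control and a lower one in every treated mouse. The ranges did not overlap, and the mean log2 ratio moved from -2.98 ± 0.39 to 0.85 ± 0.62 (SD, n = 5 each). These are ratios of read shares and not of molecules, since both genes differ in length.

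Cycs encodes somatic cytochrome c, the electron carrier of the respiratory chain and the cofactor of Apaf-1. Its level was 36.2, 41.3, 50.04, 56.0 and 86.2 CPM in controls and 47.6, 56.1, 71.9, 93.0 and 57.8 CPM after CD95-Ab. The groups overlapped, and the highest mouse of each group, saline replicate 5 and CD95-Ab replicate 4, also had the lowest TMM factor of its group, 0.869 and 0.849. The difference between the means of 53.9 ± 19.6 and 65.2 ± 17.8 CPM (SD, n = 5 each) did not pass the test (log2 fold change 0.27, 95% interval -0.26 to 0.81, FDR = 0.381). An increase of up to 1.75-fold or a small decrease would both be compatible with that interval. The log2 fold change was 0.51 without saline replicate 5 (FDR = 0.0585) and 0.08 without CD95-Ab replicate 4 (FDR = 0.792). Scaled by total counts only, without TMM factors, the log2 fold change was 0.20 (FDR = 0.386). The part of the TMM factors in the levels of single mice was not tested.

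The Cycs value depends on how reads were shared with a copy of the gene. Transcripts of Cycs and of Gm10053, an annotated protein-coding copy, shared 747 stretches of 100 bases, out of 3304 in Cycs, and Gm10053 had 27264 counts over the 10 mice against 20772 for Cycs. Cycs made up 38.4% to 47.2% of the sum of both in controls and 39.2% to 46.8% after CD95-Ab, so the division was alike in both groups. Summed, they stood at 126 ± 36.7 and 151 ± 32.0 CPM (SD, n = 5 each), with a log2 fold change of 0.25 and a 95% interval of -0.20 to 0.70 (FDR = 0.339).

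Cycs was also set against genes for its partners in the respiratory chain. Its ratio to the geometric mean of 18 genes of complexes III and IV was 0.345 to 0.471 in controls and 0.566 to 0.678 in treated mice, with no overlap. With Gm10053 added, the ranges were 0.899 to 1.03 and 1.31 to 1.55, again without overlap. Of the 18 genes, 0 were higher and 3 were lower by edgeR, and 0 were higher by an unadjusted p below 0.05 or by DESeq2, with a median log2 fold change of -0.27. Those that fell were Uqcrc1, Cyc1 and Uqcrc2, all of complex III, with log2 fold changes of -0.43, -0.42 and -0.32 (FDR of 0.0406, 0.0366 and 0.0434). A ratio shows only that the genes changed unequally. The Cycs promoter is shown because, like that of Apaf1, it held the NRF1 core, here on the other strand (GCATGCGC, in capitals) and 60 bases before the start.
Cycs, chr6:50566520-50566819, minus strand: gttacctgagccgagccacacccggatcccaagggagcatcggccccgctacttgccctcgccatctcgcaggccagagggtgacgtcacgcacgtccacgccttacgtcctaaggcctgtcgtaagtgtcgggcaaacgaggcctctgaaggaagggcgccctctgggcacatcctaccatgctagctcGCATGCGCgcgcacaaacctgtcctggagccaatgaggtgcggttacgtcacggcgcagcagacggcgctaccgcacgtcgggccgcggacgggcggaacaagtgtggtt

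**Figure D2:**
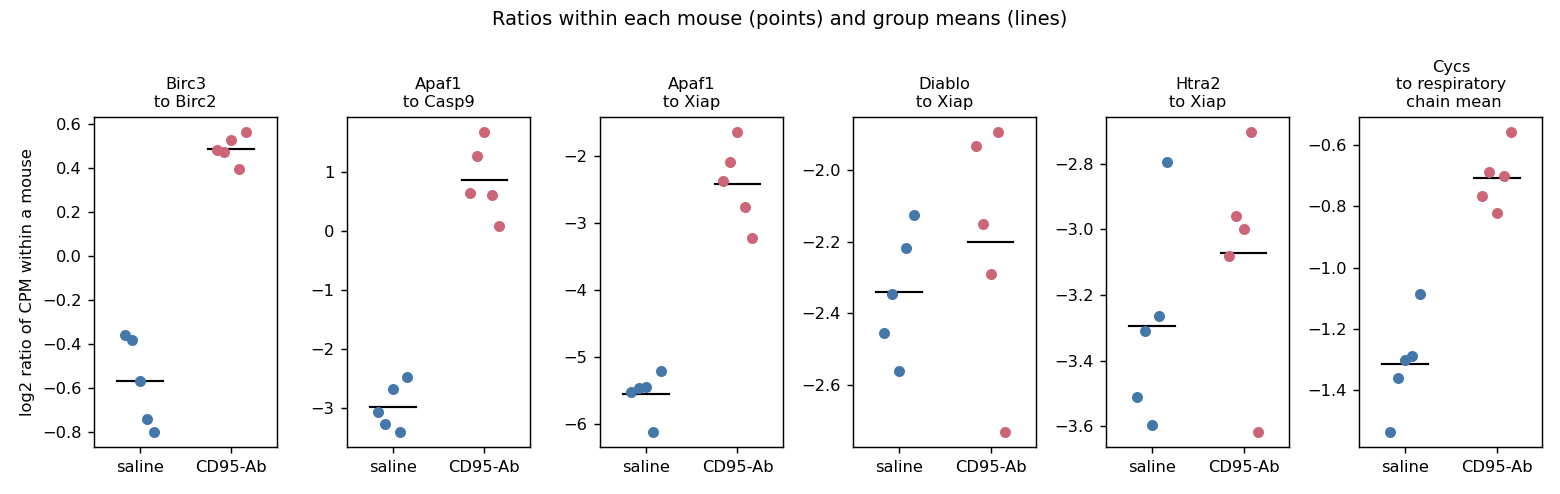
The log2 ratio of CPM within a mouse (y axis, a scale of its own in each panel) for 6 pairs, in saline-injected mice (blue) and mice injected with CD95-Ab (red), one point per mouse, with lines at the group means. The groups are separate for Birc3 to Birc2, Apaf1 to Casp9, Apaf1 to Xiap and Cycs to the respiratory chain mean, and overlap for Diablo and Htra2 to Xiap.

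For the genes of the mitochondrial IAP antagonists no change was detected. Diablo encodes Smac, which leaves the mitochondria together with cytochrome c and binds IAPs. It was between 15.9 and 19.5 CPM in controls and between 16.2 and 20.3 CPM after CD95-Ab, the narrowest relative spread after Birc6 among controls. The log2 fold change was 0.02 (95% interval -0.21 to 0.25, FDR = 0.893), which leaves room for a change of at most 1.19-fold upward at this confidence. Htra2 encodes a serine protease of the intermembrane space that cleaves and binds IAPs. It ranged from 7.62 to 11.4 CPM in controls and from 8.38 to 11.6 CPM in treated mice, with a log2 fold change of 0.10 (95% interval -0.21 to 0.40, FDR = 0.602).

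The Htra2 value carries a limit of its own. Its annotated transcripts overlap those of Aup1 on the opposite strand and share 305 stretches of 100 bases with its coding transcripts. Aup1 had 31048 counts over the 10 mice against 3310 for Htra2, and fell from 101 ± 7.47 to 75.1 ± 12.7 CPM (SD, n = 5 each, log2 fold change -0.42, FDR = 0.0170). The sources used here do not say whether strand was used in counting, so reads of both genes cannot be told apart in the overlap.

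Xiap encodes the IAP that inhibits caspases directly and lies on the X chromosome (42059679 to 42109656). Controls had 86.9, 83.5, 109, 90.6 and 79.3 CPM, and mice injected with CD95-Ab had 70.9, 80.2, 79.2, 75.5 and 109 CPM. The groups overlapped, as treated replicate 2 lay above the lowest control and treated replicate 5 reached the level of the highest. The log2 fold change was -0.11 (95% interval -0.42 to 0.19, FDR = 0.534), and it was -0.23 without CD95-Ab replicate 5 (FDR = 0.146) and -0.04 without saline replicate 3 (FDR = 0.833). Relative to Xiap, Diablo was at 0.169 to 0.229 in controls and 0.151 to 0.269 after CD95-Ab, and Htra2 at 0.0827 to 0.144 and 0.0815 to 0.153, both with overlap. The ratio of Apaf1 to Xiap went from between 0.0144 and 0.0271 to between 0.107 and 0.318.

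Birc2 and Birc3 encode cIAP1 and cIAP2, ubiquitin ligases that modify RIPK1 and keep the NF-κB-inducing kinase NIK low. They are neighbors on the minus strand of chromosome 9, at 7818227 to 7837064 and 7848699 to 7873186, and both rose. Birc2 was at 16.5, 17.5, 13.7, 15.1 and 18.1 CPM in controls and at 34.9, 45.1, 55.7, 64.1 and 35.1 CPM after CD95-Ab. Birc3 was at 12.9, 13.4, 9.21, 9.01 and 10.4 CPM in controls and at 48.7, 62.5, 80.2, 84.3 and 51.8 CPM after CD95-Ab. For both genes every treated mouse exceeded every control, and the treated mice stood in the same order, with replicate 4 highest, then replicates 3, 2, 5 and 1. In that order their TMM factors ran from lowest to highest (0.849, 0.893, 0.999, 1.01 and 1.13). In FPKM, which is not scaled by TMM, the order was 4, 3, 2, 1, 5 for Birc2 and 3, 4, 2, 1, 5 for Birc3. The part of the TMM factors in the shared order was not tested.

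Birc3 rose more than Birc2. Its mean went from 11.0 ± 2.05 to 65.5 ± 16.2 CPM (SD, n = 5 each), a 5.95-fold increase (95% interval 4.44 to 7.98, log2 fold change 2.57, standard error 0.19, FDR = 1.96e-06, exact permutation p = 0.00794). That of Birc2 went from 16.2 ± 1.82 to 47.0 ± 12.9 CPM (SD, n = 5 each), a 2.90-fold increase (95% interval 2.21 to 3.81, log2 fold change 1.54, standard error 0.18, FDR = 3.92e-05, exact permutation p = 0.00794). The ratio of Birc3 to Birc2 within a mouse was 0.575 to 0.781 in controls and 1.32 to 1.48 after CD95-Ab, with no overlap, and its SD on the log2 scale was 0.20 and 0.06. As paralogs, their transcripts shared 15 stretches of 100 bases, out of 4548 in Birc2 and 5057 in Birc3. In a local alignment of their longest coding transcripts 978 bases were aligned, of which 76.1% were identical.

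The promoters of this pair are shown because both genes rose while their windows differ in base composition. The Birc2 window had a GC content of 67.0% and that of Birc3 43.0%. Birc2 had a second RefSeq window further downstream, with a GC content of 60.0%. None of these 3 windows held the letters GGANTTTCC or GGGANTTCC, forms of the NF-κB motif, on either strand, which says nothing about sites elsewhere.
Birc2, chr9:7837008-7837307, minus strand: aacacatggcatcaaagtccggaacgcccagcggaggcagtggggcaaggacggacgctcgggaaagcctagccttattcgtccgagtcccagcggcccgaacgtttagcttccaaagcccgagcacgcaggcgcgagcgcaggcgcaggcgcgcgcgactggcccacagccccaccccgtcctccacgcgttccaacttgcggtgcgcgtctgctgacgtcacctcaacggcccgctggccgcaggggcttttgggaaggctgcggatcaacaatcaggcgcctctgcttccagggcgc
Birc3, chr9:7873121-7873420, minus strand: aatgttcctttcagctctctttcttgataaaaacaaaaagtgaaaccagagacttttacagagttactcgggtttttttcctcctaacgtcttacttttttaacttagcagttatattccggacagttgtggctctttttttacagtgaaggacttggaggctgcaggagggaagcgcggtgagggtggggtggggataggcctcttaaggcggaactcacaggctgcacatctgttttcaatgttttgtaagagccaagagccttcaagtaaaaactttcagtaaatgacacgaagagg

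Birc5 encodes survivin, a small IAP that works in the chromosomal passenger complex during mitosis. It was at 1.93, 2.67, 0.704, 1.92 and 2.84 CPM in controls and at 0.899, 1.21, 1.75, 0.484 and 0.753 CPM after CD95-Ab. The groups overlapped through saline replicate 3, which was lower than 4 of the treated mice. CD95-Ab replicate 3, the highest of its group, lay below every other control. With 12 to 153 counts per mouse this was the least deeply measured of the 10 genes. The means were 2.01 ± 0.84 and 1.02 ± 0.49 CPM (SD, n = 5 each), and the difference missed the threshold (log2 fold change -0.99, 95% interval -1.85 to -0.13, FDR = 0.0576, exact permutation p = 0.0873). It passed with DESeq2 (FDR = 0.0303), without saline replicate 3 (log2 fold change -1.21, FDR = 0.0122) and without CD95-Ab replicate 3 (log2 fold change -1.27, FDR = 0.0265). None of the 12 other genes of the passenger complex and mitosis passed the edgeR test in either direction, 0 had an unadjusted p below 0.05 and 0 passed with DESeq2, and their summed level was 10.1 to 43.4 CPM in controls and 13.2 to 49.6 CPM after CD95-Ab.

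The Birc5 window is shown because, among the 12 windows of the 9 genes found in RefSeq, it was the one with an NF-κB motif (GGACTTTCC, in capitals, beginning 43 bases before the start). Htra2 was not matched. The motif was searched on both strands and is present in 2.89% of 32851 promoters of the same length, and the NRF1 core in 2.71%. Besides Apaf1 and Cycs, Birc6 held the NRF1 core, at 103 and at 2 bases before the start. The cell cycle homology letters TTTGAA, present in 17.9% of all promoters, were found only in 1 window of Xiap. A match of letters is not evidence of binding.
Birc5, chr11:117848987-117849286, plus strand: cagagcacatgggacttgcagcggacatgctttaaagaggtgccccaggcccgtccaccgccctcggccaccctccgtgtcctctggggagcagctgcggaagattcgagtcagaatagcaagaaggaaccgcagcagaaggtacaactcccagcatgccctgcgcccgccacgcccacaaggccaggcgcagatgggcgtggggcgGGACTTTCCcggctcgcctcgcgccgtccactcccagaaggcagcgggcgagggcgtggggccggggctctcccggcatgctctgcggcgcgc

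Birc6 encodes BRUCE, a very large IAP that is both a ubiquitin-conjugating enzyme and a ligase. It was at 73.0, 65.5, 71.2, 67.9 and 68.3 CPM in controls, the tightest group of all, and at 77.5, 65.3, 70.8, 62.9 and 93.8 CPM after CD95-Ab. The treated mice reached both below and above the range of the controls. The log2 fold change was 0.10 (95% interval -0.17 to 0.37, FDR = 0.539). The coefficient of variation was 4.26% in controls and 16.7% after CD95-Ab.

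**Figure D3:**
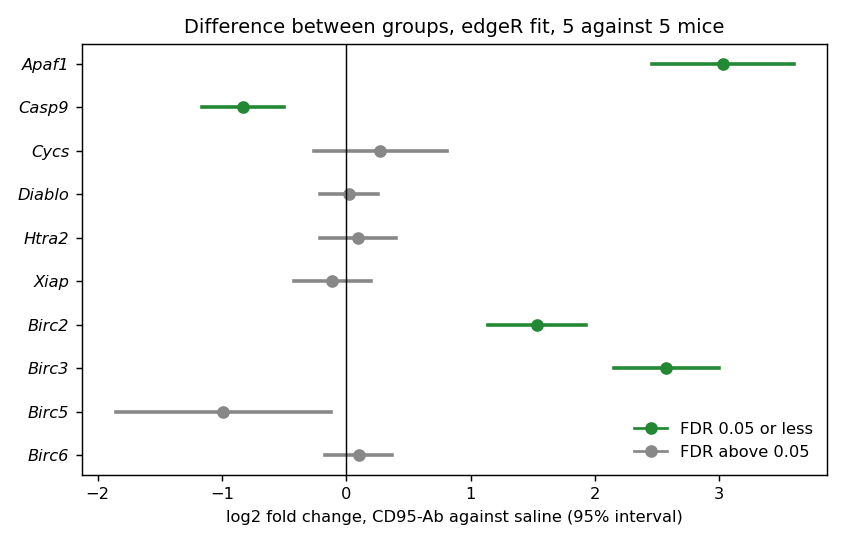
The log2 fold change after CD95-Ab relative to saline (x axis) for the 10 genes, with 95% intervals from the edgeR fit over 5 mice per group, in green at an FDR of 0.05 or less and in gray above it. Apaf1, Birc3 and Birc2 lie to the right of 0 and Casp9 to the left, while the interval of Birc5 excludes 0 before correction for multiple testing only.

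Levels of different genes were compared per transcript length, as FPKM (fragments scaled by transcript length and library total). In controls the order was Cycs at 20.0 ± 5.87, Birc6 at 17.8 ± 1.46, Xiap at 17.3 ± 2.55 and Diablo at 11.9 ± 1.06 FPKM (SD, n = 5 each), followed by Htra2 at 6.00, Birc2 at 5.43, Birc3 at 5.13, Casp9 at 4.51, Birc5 at 1.78 and Apaf1 at 0.678 FPKM. The ranges of Cycs, Birc6 and Xiap overlapped, as did those of neighbors from Htra2 to Casp9 and those of Birc5 and Apaf1. After CD95-Ab, Birc3 stood first at 28.1 ± 3.82 FPKM, although its range overlapped with that of Cycs at 22.4 ± 4.95 FPKM, and it lay above the range of Xiap at 14.9 ± 2.85 FPKM. Apaf1, at 4.95 ± 1.85 FPKM, had passed Casp9 at 2.40 ± 0.46 FPKM without overlap, and Birc5 was last at 0.970 FPKM. The place of Cycs in both orders depends on the division of reads with Gm10053.

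**Figure D4:**
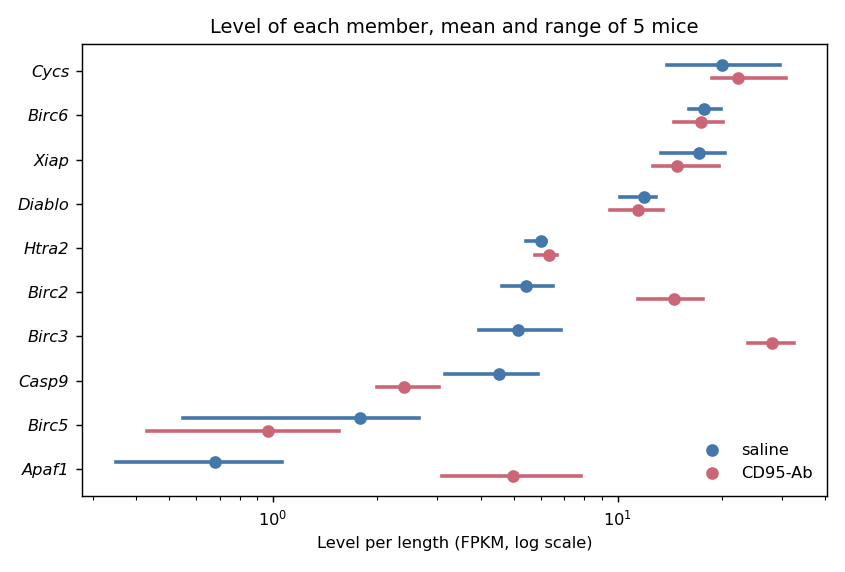
Mean (point) and range (line) over 5 mice of the level per length in FPKM, on a log scale, for each gene in saline-injected mice (blue) and mice injected with CD95-Ab (red), ordered by the level in controls. Birc3 and Birc2 move from the middle of the order to levels like those of Xiap or above it, and Apaf1 from the bottom to above Casp9.

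Among the mice of 1 group some of the 10 genes varied together. After removal of the group means, the highest correlations of log2 CPM among 45 pairs over the 10 mice were those of Cycs with Htra2 (Pearson r = 0.94, Spearman rho = 0.842) and of Birc2 with Birc3 (r = 0.885, rho = 0.915). Without the 2 mice farthest from the median of the first gene of the pair, Cycs or Birc2, they were 0.815 and 0.810. The lowest was that of Casp9 with Htra2 (r = -0.785, rho = -0.806). These are descriptions without a test, and each pair shares the depth and scaling of its library.

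By Pearson r of log2 CPM over the 10 mice, with 12129 genes compared, Apaf1 was most like Tlnrd1 (0.994), Ywhaz (0.994) and Synpo (0.993). Birc2 was most like Myc (0.991), Rab20 (0.990) and Pdlim7 (0.989). Birc3 was most like Stx11 (0.996), Pde4b (0.995) and Pglyrp1 (0.994). Such values are high for any gene that separates the groups.

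The other genes of the pathway were taken from lists chosen by function. The counts in these lists stand beside 47.3% of all genes tested that passed, 25.4% higher and 22.0% lower. Among the BCL2 family proteins, which control release of cytochrome c at the outer mitochondrial membrane, 8 of 14 tested genes rose and 2 fell, with a median log2 fold change of 0.56. Bcl2a1b, an inhibitor of release, rose from 0.674 ± 0.342 to 14.3 ± 1.18 CPM (log2 fold change 4.37, FDR = 9.76e-07). Its lowest control had 0.269 CPM, so it passed the filter on low counts only with the treated mice. Bcl2l1, which encodes the inhibitor BCL-XL, rose from 28.9 ± 6.97 to 120 ± 46.2 CPM (2.05, FDR = 8.71e-05). Bcl2 itself rose by 1.70 on the log2 scale (FDR = 1.74e-05). Mcl1, which encodes another inhibitor, rose by 0.74 (FDR = 0.0011). Genes that promote release went both ways. Bcl2l11, which encodes BIM, rose from 6.98 ± 1.95 to 21.3 ± 4.57 CPM. Bbc3, Bok and Bak1 also rose, by 0.78, 0.61 and 0.52 on the log2 scale (FDR of 0.041, 0.0297 and 0.0055). Bmf and Bik fell by 1.98 and 1.60 on the log2 scale (FDR of 0.00167 and 2.80e-04). Mcl1, Bcl2l11, Bbc3, Bok and Bak1 were named after their values were seen.

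Among the signaling partners of cIAP1 and cIAP2, 11 of 16 genes rose and 0 fell by edgeR and by DESeq2 (0 lower also by an unadjusted p below 0.05), with a median log2 fold change of 1.04. Tnfaip3, which encodes the ubiquitin-editing enzyme A20, rose from 3.09 ± 1.02 to 122 ± 20.3 CPM, and Relb, a subunit of noncanonical NF-κB, from 2.01 ± 0.63 to 29.1 ± 10.5 CPM. Traf1, an adaptor that binds cIAPs, rose from 0.285 ± 0.122 to 3.79 ± 1.06 CPM, a log2 fold change of 3.70 (FDR = 3.67e-06). Its controls had 0.141 to 0.415 CPM, and it passed the filter on low counts only with the treated mice. Its direction was thus set in advance, also where it is counted among the 11. Map3k14, which encodes NIK, rose from 2.30 ± 0.62 to 11.5 ± 1.67 CPM. Traf2 and Traf3, the adaptors that bring cIAPs to NIK, rose by 0.72 and 1.37 on the log2 scale (FDR of 0.00124 and 1.74e-05).

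The remaining lists cover the other steps of the pathway. Of 5 caspase genes other than Casp9, 0 rose and 1 fell by edgeR. The gene that fell was Casp6, an executioner caspase, which went from 23.1 ± 2.92 to 10.1 ± 2.11 CPM (log2 fold change -1.19, FDR = 8.57e-05). Casp2, named after its values were seen, was at 3.38 ± 0.52 and 4.55 ± 0.92 CPM (log2 fold change 0.44), which missed the threshold with edgeR (FDR = 0.0622, the 1 higher gene at an unadjusted p below 0.05) and was the 1 higher gene by DESeq2. Among 12 modulators of apoptosome assembly 4 rose and 2 fell. Hspb1, Bag3 and Hsp90aa1, which encode chaperones or a cochaperone, rose by 1.56, 1.14 and 1.14 on the log2 scale. Hspa1b, which encodes another chaperone, fell from 13.8 ± 6.87 to 7.4 ± 2.54 CPM (log2 fold change -0.89, FDR = 0.0475), with overlap of the groups. Anp32a, which encodes a protein that promotes assembly, fell from 75.2 ± 4.30 to 42.9 ± 8.89 CPM (log2 fold change -0.81, FDR = 8.39e-04).

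Among 15 tested other BIR proteins and regulators of IAPs, 3 rose and 2 fell. Xaf1, which encodes an XIAP-associated factor, rose from 7.89 ± 3.54 to 26.4 ± 10.1 CPM (log2 fold change 1.74, FDR = 8.90e-04). The other genes that rose were Traf1 and Traf2, which stand on both lists. For Traf1 the limit of the count filter given above holds here too. Septin4, a locus whose isoform ARTS binds XIAP, fell from 6.17 ± 1.41 to 2.99 ± 0.53 CPM (FDR = 0.00102), although the counts do not separate isoforms. Birc7, which encodes livin, had 0 counts in every mouse. Of 14 genes for the processing and release of intermembrane space proteins, 2 rose and 4 fell. Vdac1, which encodes a channel of the outer mitochondrial membrane, fell from 145 ± 6.53 to 96.0 ± 14.6 CPM (log2 fold change -0.60, FDR = 0.00193). Hccs, which encodes the lyase that attaches heme to cytochrome c, rose from 6.98 ± 1.62 to 10.7 ± 2.00 CPM (FDR = 0.0177).

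**Figure D5:**
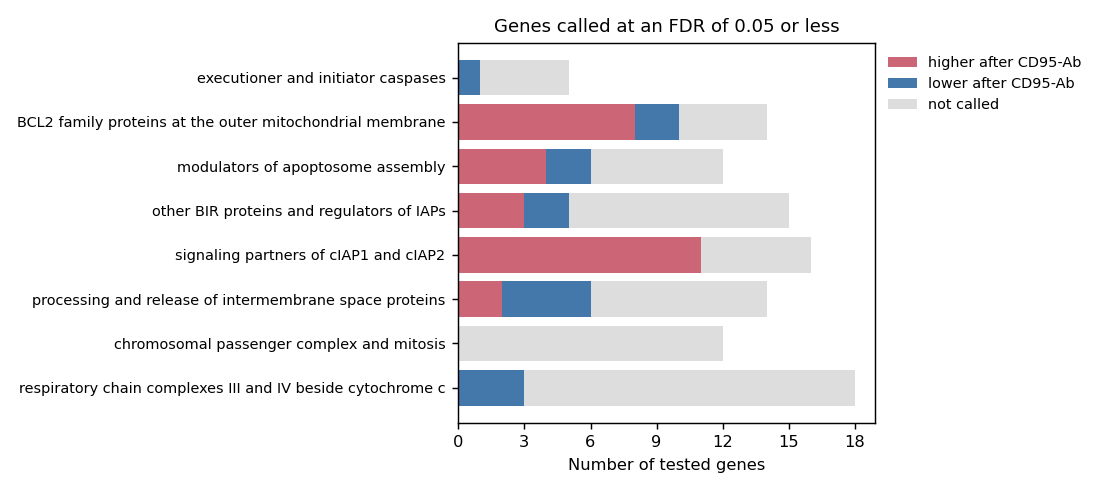
Number of tested genes (x axis) in each of 8 functional lists that were higher (red), lower (blue) or not called (gray) after CD95-Ab at an FDR of 0.05 or less. The signaling partners of cIAP1 and cIAP2 hold 11 higher genes of 16, and the list of the passenger complex and mitosis holds none in either direction.

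Markers of several cell types moved with the groups. The samples expressed hepatocyte markers at the level of liver, with a summed 108000 to 128500 CPM in controls and 57020 to 92910 CPM after CD95-Ab. Of the 7 hepatocyte genes tested 1 rose and 2 fell, and albumin took 7.72% to 9.65% of counts in controls and 2.88% to 5.44% in treated mice. Neutrophil markers summed to 4.31 to 10.8 and 103 to 431 CPM, with 6 of 6 tested genes higher and 4 of the 10 listed (Ly6g, Camp, Mpo and Elane) under the count filter. Among the tested, Ngp had at most 0.178 CPM in controls and at least 0.899 CPM after CD95-Ab. It passed the count filter only through the treated mice, so its direction was set in advance. Ngp was named after its values were seen. Macrophage markers summed to 134 to 378 and 435 to 735 CPM, with 3 of 9 higher (Lyz2, Marco and Cd68) and 6 not called. Lyz2 alone went from 34.9 ± 7.34 to 227 ± 69.9 CPM. Clec4f and Vsig4, named after their values were seen, had means of 91.9 and 19.1 CPM in controls and 98.4 and 18.8 CPM after CD95-Ab. Lymphocyte markers summed to 1.72 to 5.81 and 8.79 to 16.7 CPM (7 of 9 higher), and endothelial markers to 50.2 to 110 and 174 to 354 CPM (6 of 7 higher). Stellate cell and cholangiocyte markers summed to 118 to 154 and 315 to 528 CPM (7 of 9 higher), and erythroid markers to 135 to 324 and 1064 to 34000 CPM (6 of 6 higher). The part of these cell types in the levels of Apaf1, Birc2, Birc3 and Casp9 was not tested.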

How the data were processed

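Liver RNA of 5 saline-injected mice and 5 mice injected with CD95-Ab was analysed, with groups taken from the sample labels. The authors sequenced TruSeq libraries in pairs of 100 bp reads and assigned reads to genes with RSEM 1.2.19, which shares out reads that fit several genes. Raw expected counts per gene, deposited as whole numbers, were used for all tests. Levels of different genes were compared with the deposited FPKM, scaled by RSEM for length and library total. The mouse annotation and genome build are not given in the sources used here. Symbols, positions and overlaps came from GENCODE release M21 (GRCm38), matching 37606 of 38922 identifiers, and promoters from RefSeq (GRCm38.p6), matching 9 of 10 genes.

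Genes were kept with filterByExpr (minimum count of 10), scaled with TMM and compared between groups by edgeR 4.0.16 (quasi-likelihood, no covariate, R 4.3.3), with Benjamini-Hochberg adjustment over all genes tested. Single genes were also compared by a two-sided exact permutation test on log2(CPM + 0.1). DESeq2 1.42.0, limma 3.58.1 on FPKM, other scalings and filters, a block for the replicate number and fits without each single mouse served as alternatives. Code (Python 3.11.15, scipy 1.17.1, pandas 2.3.3) was tested on simulated data. Totals were 25965699 to 62097636 counts, at which 3 counts are 0.116 to 0.0483 CPM before TMM scaling. Mice of a group differed beyond sampling noise in all 20 pairs (chi-square per degree of freedom of 44.5 or more). The genes and lists were chosen with earlier results of these data known. Named genes were the 10 members, up to 3 of the largest increases and decreases called in each list, direct partners of members, and the 3 genes most like each member that changed by 1 or more on the log2 scale, with exceptions marked in the text. Labels and methods differ on body weight and sequencer model.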

Additional observations from a re-analysis of the deposited data

Results flagged for a closer look

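The level of Xiap in CD95-Ab replicate 5, at 109 CPM, stood apart from the other 4 mice of its group, which lay between 70.9 and 80.2 CPM. Its gap to the nearest mouse was 0.755 of the range of the group, above Dixon's 95% critical value of 0.71 for 5 values. It was the only value so placed among 20 groups examined, the 10 genes in each of the 2 groups, and chance gives about 1 in 20. Birc6 and Casp9 were also at the highest level of the treated group in this mouse, at 93.8 and 10.98 CPM. Without it the log2 fold change of Xiap was -0.23 (FDR = 0.146), against -0.11 with all mice.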

How the results depend on the processing

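Of 200 fold changes recomputed for the 10 genes under 20 alternatives, 185 kept their direction and their side of the threshold. Apaf1, Birc2, Birc3 and Casp9 passed under all 20, with log2 fold changes of 1.79 to 3.13, 1.27 to 1.63, 2.26 to 2.66 and -0.94 to -0.69. The smallest of these came from limma on log2(FPKM + 1), where the pseudocount weighs on low genes. Birc5 passed under 5 alternatives, so that 2 of the 10 genes were lower instead of 1 with DESeq2 (log2 fold change -1.0), total counts only (-1.06), upper quartile factors (-1.08), and between 1 and 2 when each mouse was left out. Signs near 0 turned for Birc6 with limma on FPKM (-0.037 and -0.035 for pseudocounts of 0.1 and 1) and for Diablo with the same (-0.059 and -0.055), without a filter (-0.014), with total counts (-0.058), with upper quartile factors (-0.056), and between -0.0439 and 0.0516 when each mouse was left out. The cause was not tested. The median of all genes moved by less than 0.1 under every scaling. Correlations of same-numbered mice ran from -0.306 to 0.316, and 5 of 10 mice were closest to their own number. With 5 mice per group these values do not decide whether the replicate numbers pair the mice. With a replicate block 4 of the 10 genes and 5987 of all genes passed. Summing Cycs with Gm10053 was added after seeing the data and gave 0.25 for Cycs, against 0.27. Depth limits Birc5 most, with 12 counts in the lowest mouse.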
